A study of Mus musculus with 33 samples.

Results

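The genes described here act in the remodelling of high density lipoprotein (HDL), in lipoprotein assembly and uptake, and in the export of sterols from the liver. The set names 10 genes, Pltp, Lcat, Scarb1, Abca1, Abcg5, Abcg8, Lipc, Lipg, Mttp and Lrp1, and every probe set whose platform annotation carried one of these symbols was taken. This gave 18 of 45101 probe sets, for 9 of the 10 genes. Lipc, hepatic lipase, had no probe set named for it in the annotation used here, so its expression was not analysed. Of the 18 probe sets, 17 passed the filter on dim signal, which asked for 4 or more on the log2 scale in 10 or more of the 33 arrays.

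Livers came from 33 male C57BL/6J mice aged 17 weeks, with 1 Affymetrix expression array per mouse, after 2 weeks on a diet. In the fenofibrate group 12 mice ate 0.03% (w/w) of the drug, an agonist of the nuclear receptor PPARα, in a diet with sunflower oil at 7% of energy. In the fish oil group 11 mice ate fish oil at 7% of energy, of which 23.1% was EPA and 21.1% DHA. In the control group 10 mice ate the sunflower oil diet alone, whose oil was 81.3% oleic acid and was shared with the fenofibrate group. All mice were housed 2 per cage and were fasted for part of the light period before death. Cage mates are not named in the labels. Arrays with consecutive label numbers deviated together in part (median correlation 0.14 over 16 pairs), so p-values that take arrays as independent can be too small.

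HDL forms when ABCA1 loads cholesterol and phospholipid onto apolipoprotein A-I. LCAT then esterifies the cholesterol, PLTP moves phospholipid between particles, endothelial and hepatic lipase hydrolyse HDL lipids, and SR-BI, the product of Scarb1, takes up cholesteryl ester into the hepatocyte. ABCG5 and ABCG8 join as 1 transporter that moves sterols into bile, MTTP lipidates apolipoprotein B for secretion, and LRP1 clears remnant particles from blood. PPARα, a fatty acid sensor, and LXR, an oxysterol sensor, are nuclear receptors known to act on several of these genes.

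Array medians lay between 2.9 and 2.97, and between 16453 and 16835 probe sets per array reached a log2 value of 4. Arrays of 1 diet correlated across genes at 0.968 to 0.995. The hepatocyte markers Alb, Ttr, Ahsg, Fgb, Cps1, Hnf4a, Tat and Serpinc1 all passed the filter, while neither adipocyte marker with a named probe set did, and 1 of the cholangiocyte markers did (Krt19, Krt7, Epcam and Spp1 did not). Control replicates 1, 2 and 9 stood apart from the other controls, with mean correlations across genes to their own diet of 0.974, 0.976 and 0.979, against 0.985 or more for each of the other 7. Fish oil replicate 9 was at 0.980, against 0.987 or more for the other fish oil arrays. Results that rest on the 3 control arrays are also given without them, a choice made with earlier results of these data known. In whole liver, fewer cells of a type and less RNA per cell cannot be told apart. All values below are GCRMA log2 values, differences are log2 differences between diet means ± SE, and "called" means an adjusted p (limma, Benjamini-Hochberg, over 9005 genes) under 0.05.

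Most of these genes changed on fenofibrate, in both directions. Against control, 3 of the 9 measured members rose, Pltp, Mttp and Abcg8, and 4 fell, Scarb1, Lrp1, Lcat and Abca1, while Abcg5 and Lipg did not pass. Over all genes 40.8% were called, 22% higher and 18.9% lower. The calls of Abcg8 and Abca1 were lost without control replicates 1, 2 and 9. On fish oil 2 members rose, Abca1 and Abcg8, and 2 fell, Pltp and Lipg, beside 14.5% of all genes called, 7.53% higher and 7% lower. The fish oil call of Abcg8 was also lost without control replicates 1, 2 and 9. Between the diets, 3 members were higher on fenofibrate than on fish oil, Pltp, Lipg and Mttp, and 4 were lower, Scarb1, Abca1, Lrp1 and Lcat, where 38.9% of all genes were called, 19.8% higher and 19.1% lower. The median member difference was 0.17 on fenofibrate and 0.00 on fish oil, each against control, and -0.14 between the diets, beside medians of -0.00, 0.01 and -0.01 over all genes.

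**Figure D1:**
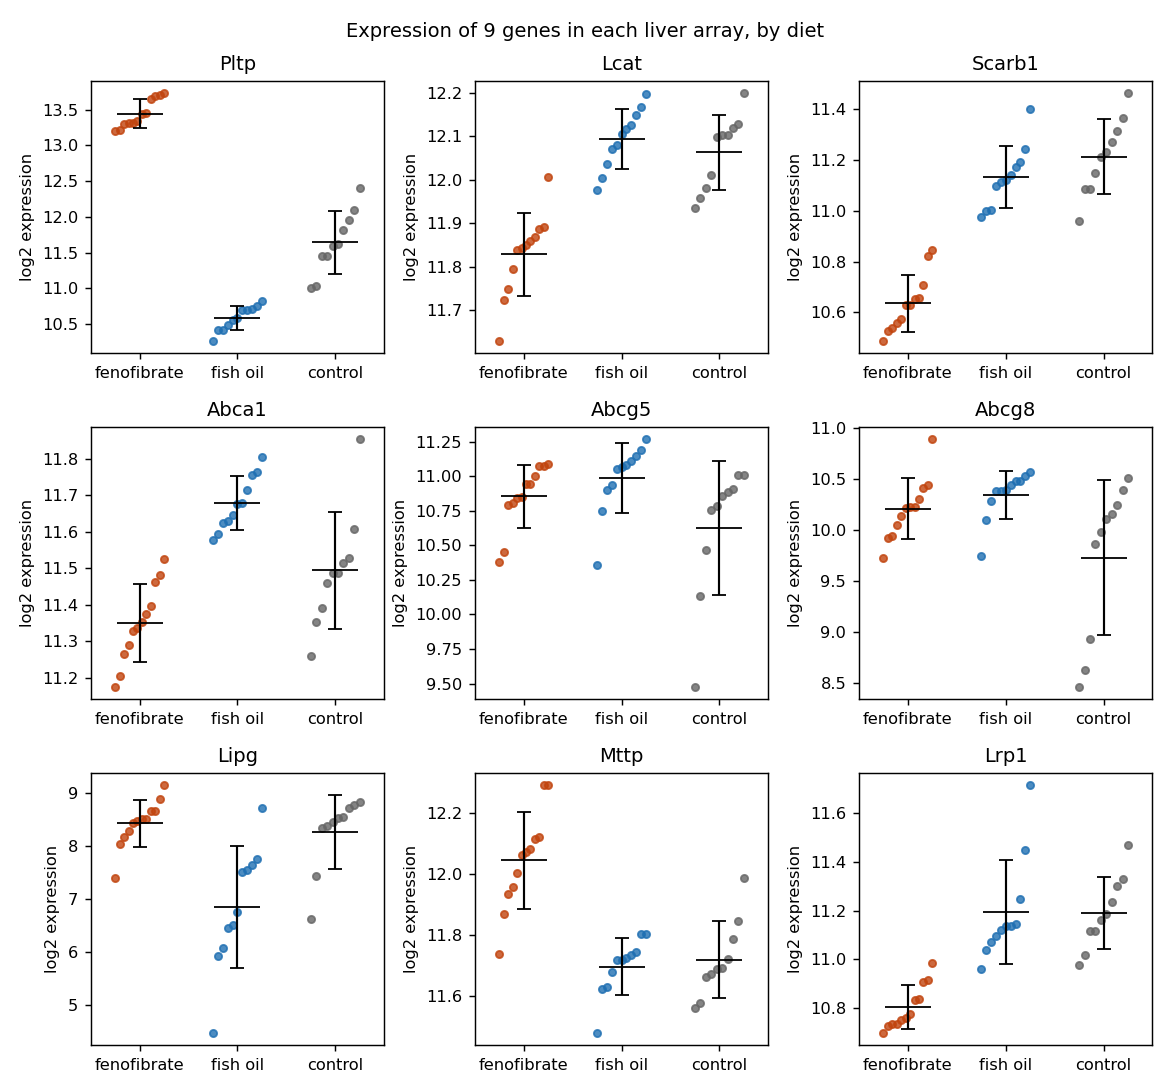
Log2 expression (vertical axis) of the 9 measured genes in each of 12 fenofibrate, 11 fish oil and 10 control arrays; points are arrays sorted by value, and bars are the mean ± SD. The diets separate without overlap for Pltp, fenofibrate on top and fish oil at the bottom, and the fenofibrate arrays lie below all others for Scarb1.

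Pltp, whose protein transfers phospholipid onto HDL as other lipoproteins shrink, moved in opposite directions on the drug and the oil, and moved more than any other member on fenofibrate and between the diets. On its brighter probe set, 1456424_s_at, fenofibrate arrays ran from 13.20 to 13.73 with a median of 13.39. Fish oil arrays ran from 10.27 to 10.82 (median 10.58), and control arrays from 11.01 to 12.40 (median 11.61). No array of any diet fell within the range of another diet. Ranges were apart in this way for 5.41% of all genes between fenofibrate and control, for 1.05% between fish oil and control and for 6.34% between the diets.

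On fenofibrate the difference of Pltp was 1.80 ± 0.12, a 3.49-fold rise (adjusted p = 6.77e-14), the 54th highest difference of 9005 genes. On fish oil Pltp fell by 1.06 ± 0.12, or 2.09-fold (adjusted p = 9.06e-08), the 66th lowest. Fenofibrate livers held 7.28-fold more than fish oil livers (2.86 ± 0.12, adjusted p = 1.67e-19), a difference that ranked 26th highest. The dimmer probe set, 1417963_at, gave larger differences, 2.08 ± 0.16 on fenofibrate, -1.39 ± 0.16 on fish oil and 3.47 ± 0.16 between the diets, again with no overlap. Both treated groups were compared with the same 10 controls. The spread among controls (SD 0.44) was wider than that on fenofibrate (0.20) or fish oil (0.17), with control replicates 1 and 2 lowest, at 11.01 and 11.04, and control replicate 10 highest. Without control replicates 1, 2 and 9 both differences kept their sign and their call.

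The promoter window of Pltp is shown because no other member differed as far between fenofibrate and either other diet. It spans 250 bases before and 50 after the start of the gene on the minus strand, chr2:164857659-164857958 (RefSeq, GRCm38.p6). Capitals mark a CCAAT box, a GC box and a TATA box, in this order from the left.
Pltp: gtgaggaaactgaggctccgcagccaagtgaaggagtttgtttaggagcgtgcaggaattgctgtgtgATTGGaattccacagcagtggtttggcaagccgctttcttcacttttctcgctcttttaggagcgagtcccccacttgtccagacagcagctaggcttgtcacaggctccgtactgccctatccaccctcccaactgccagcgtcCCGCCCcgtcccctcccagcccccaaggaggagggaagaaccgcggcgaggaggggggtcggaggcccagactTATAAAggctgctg
Motifs were searched on both strands, and shares are of all 32851 windows of this length. The TATA box was searched as TATAAA (in 13.6% of windows), the CCAAT box by these letters (in 37.4%) and the GC box as GGGCGG (in 35.7%). Each had 1 match here, the TATA box after the start. The hexamer AGGTCA of nuclear receptors, which 16.3% of windows held, had none. Its direct repeat with 1 base between, AGGTCANAGGTCA, which PPARα with its partner RXR recognises, was in 0.0396% of windows. The repeat with 4 bases between, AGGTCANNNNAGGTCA, which LXR with RXR recognises, was in 0.0152%. Neither repeat was in a window of any of the 8 members whose windows were searched, which include Lipc but not Scarb1 or Lipg.

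Scarb1 encodes SR-BI, the HDL receptor that hands cholesteryl ester to the hepatocyte. It fell on fenofibrate and did not pass on fish oil. Its brightest probe set, 1416050_a_at, lay between 10.49 and 10.85 (median 10.63) in fenofibrate arrays. It lay between 10.98 and 11.40 (median 11.12) in fish oil arrays and between 10.96 and 11.46 (median 11.22) in control arrays. All 12 fenofibrate arrays were below every fish oil and every control array, whereas fish oil and control ranges overlapped. The fall on fenofibrate was -0.58 ± 0.06 against control (1.49-fold, adjusted p = 5.26e-10) and -0.50 ± 0.06 against fish oil (adjusted p = 7.78e-09). On fish oil the difference from control was -0.08 ± 0.06 (adjusted p = 0.388), with a 95% interval from -0.20 to 0.04. The other probe sets, 1437378_x_at and 1455820_x_at, gave -0.59 ± 0.06 and -0.64 ± 0.06 on fenofibrate, also without overlap.

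Lcat, the plasma enzyme that esterifies cholesterol on HDL, fell slightly on fenofibrate. Fenofibrate arrays ran from 11.63 to 12.01 (median 11.85), fish oil arrays from 11.98 to 12.20 (median 12.11) and control arrays from 11.94 to 12.20 (median 12.10). All fenofibrate arrays but 1, replicate 7 at 12.01, lay below every control. The difference was -0.24 ± 0.04 against control (adjusted p = 2.14e-05) and -0.26 ± 0.04 against fish oil (adjusted p = 2.34e-06). On fish oil it was 0.03 ± 0.04 against control, with a 95% interval from -0.06 to 0.11, so a change of the size seen on fenofibrate lies outside that interval.

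Lrp1 encodes a large endocytic receptor of remnants and many other ligands, which liver cells other than hepatocytes make too. Probe set 1448655_at ran from 10.70 to 10.98 (median 10.77) on fenofibrate, from 10.96 to 11.71 (median 11.14) on fish oil and from 10.98 to 11.47 (median 11.17) on the control diet. In 11 of 12 fenofibrate arrays it was below all controls, while 1 fish oil array, replicate 9 at 11.71, was above all controls and 1, replicate 3 at 10.96, below them. Lrp1 fell by 0.39 ± 0.07 against control (1.31-fold, adjusted p = 2.44e-05) and by 0.39 ± 0.07 against fish oil (adjusted p = 1.71e-05). Fish oil gave 0.00 ± 0.07 against control (95% interval -0.14 to 0.14). On the dimmer probe set 1442849_at the fall against control was -0.47 ± 0.15 (adjusted p = 0.0147 over 17162 probe sets, of which 36.6% were called). The difference from fish oil was -0.33 ± 0.15 there and did not pass (adjusted p = 0.0881, with 34.5% called).

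Markers of liver cell types moved beside these falls. Over all genes 18.9% fell and 22% rose on fenofibrate, and 7% fell and 7.53% rose on fish oil. Of 8 hepatocyte markers 6 fell and 0 rose on fenofibrate, with a median of -0.33, and 3 fell and 0 rose on fish oil, with a median of -0.07. Alb (-0.02 ± 0.03) and Ttr (-0.04 ± 0.03) did not pass on fenofibrate. The summed linear level of the 8 markers ran from 121370 to 131210 in fenofibrate arrays, from 134920 to 142440 in fish oil arrays and from 137410 to 148130 in control arrays. Of 8 Kupffer cell markers 2 fell on fenofibrate and 0 on fish oil, with sums of 4815 to 9696 in fenofibrate arrays, 6132 to 10906 in fish oil arrays and 6890 to 10794 in control arrays. Of 6 stellate cell markers past the filter 4 fell and 1 rose on fenofibrate and 0 changed on fish oil at the threshold (Des was not past the filter). Their sums were 4249 to 5157 in fenofibrate arrays, 4813 to 5835 in fish oil arrays and 5244 to 5798 in control arrays. On fish oil the hepatocyte count was 0 with consecutive label numbers as a random block or averaged, and 2 without control replicates 1, 2 and 9. The Kupffer count on fenofibrate was 1 in each of these 3 fits, and 1 stellate marker fell on fish oil without control replicates 1, 2 and 9. Over all genes, too, fewer were called on fish oil in the fits that used consecutive label numbers. The part of the marker shifts in the falls of Scarb1, Lcat and Lrp1 was not tested.

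Mttp, the microsomal protein that loads triglyceride onto apolipoprotein B, rose on fenofibrate. Probe set 1419400_at ran from 11.74 to 12.29 (median 12.07) in fenofibrate arrays, from 11.48 to 11.80 (median 11.72) in fish oil arrays and from 11.56 to 11.99 (median 11.69) in control arrays. All 12 fenofibrate arrays lay above the medians of both other diets, and 8 lay above every control. The rise was 0.32 ± 0.06 against control (1.25-fold, adjusted p = 2.72e-05) and 0.35 ± 0.06 against fish oil (adjusted p = 7.02e-06). Probe set 1419399_at gave 0.43 ± 0.06 against control and 0.42 ± 0.06 against fish oil, without overlap between fenofibrate and fish oil. Fish oil against control gave -0.02 ± 0.06, with a 95% interval from -0.14 to 0.10.

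**Figure D2:**
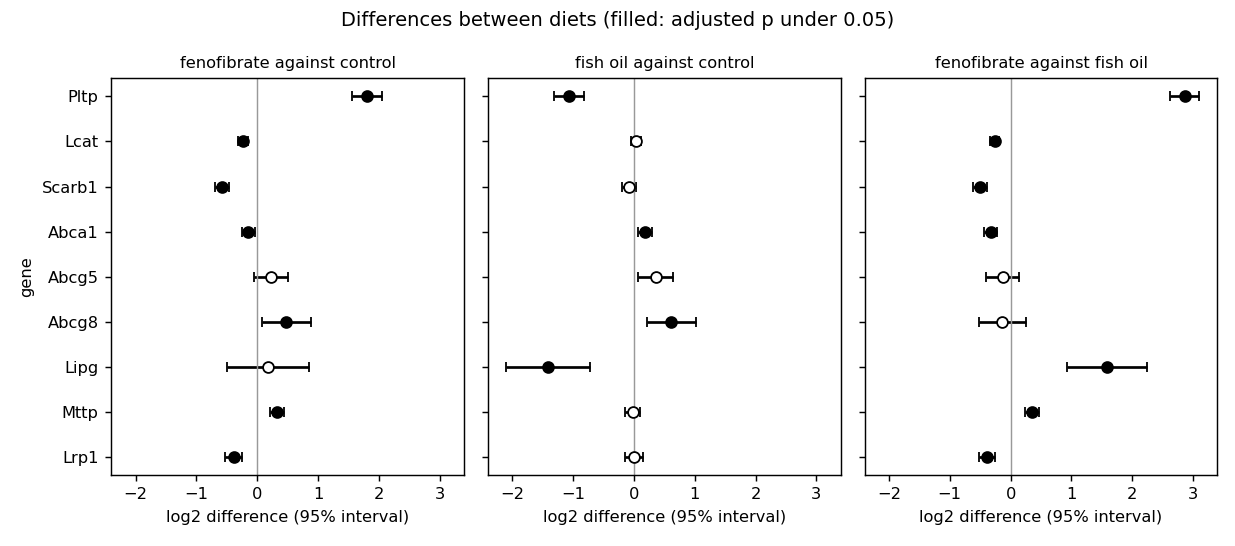
Log2 differences (horizontal axis) of the 9 measured genes in the 3 comparisons with 95% intervals from limma; filled points have an adjusted p under 0.05. Pltp stands at 1.80 and -1.06 against control on fenofibrate and fish oil, and Lipg at 0.17 and -1.41.

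Lipg encodes endothelial lipase, a phospholipase that acts on HDL at the vessel wall. It fell on fish oil and did not pass the test on fenofibrate. Probe set 1421262_at ran from 7.39 to 9.15 (median 8.49) in fenofibrate arrays, from 4.47 to 8.71 (median 6.75) in fish oil arrays and from 6.61 to 8.82 (median 8.48) in control arrays. Of 11 fish oil arrays 5 lay below every control, while replicate 6 at 8.71 lay near the top of the control range, so the groups overlapped. Lipg fell by 1.41 ± 0.34 on fish oil against control (2.66-fold, adjusted p = 0.00386), the 41st lowest difference of 9005 genes. Fenofibrate gave 0.17 ± 0.33 against control (adjusted p = 0.710), with a 95% interval from -0.50 to 0.85, and 1.58 ± 0.32 against fish oil (3.00-fold, adjusted p = 1.98e-04).

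The dimmer probe set 1450188_s_at gave -1.50 ± 0.34 on fish oil against control and 1.74 ± 0.32 on fenofibrate against fish oil. The other Lipg probe set, 1421261_at, stayed between 2.19 and 3.07 on every array, around the array median, and did not pass the filter. The lowest fish oil array, at 4.47, was close to the filter level. Of 8 sinusoidal endothelial markers 3 fell and 0 rose on fish oil, beside 7% and 7.53% of all genes. On fenofibrate 3 of these markers fell and 1 rose, beside 18.9% and 22% of all genes. The summed linear level of these markers was 3625 to 4286 on fenofibrate, 3642 to 4269 on fish oil and 4266 to 4911 on the control diet. On fish oil the endothelial count was 1 with consecutive label numbers as a random block, 0 with them averaged and 4 without control replicates 1, 2 and 9. Their part in the fall of Lipg was not tested.

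Abca1, the exporter that starts HDL formation, differed between the diets more clearly than from control. Its brightest probe set, 1421840_at, ran from 11.18 to 11.53 (median 11.34) on fenofibrate, from 11.58 to 11.81 (median 11.68) on fish oil and from 11.26 to 11.85 (median 11.49) on the control diet. Every fenofibrate array was below every fish oil array, and the control range spanned most of both. The difference between fenofibrate and fish oil was -0.33 ± 0.05 (1.26-fold, adjusted p = 4.04e-06). Abca1 rose by 0.18 ± 0.05 on fish oil against control (adjusted p = 0.0174), and by 0.31 ± 0.08 and 0.33 ± 0.10 on probe sets 1421839_at and 1450392_at, both called (11.6% of all probe sets were). With arrays of consecutive label numbers averaged the fish oil call was lost (adjusted p = 0.116).

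On fenofibrate the fall of Abca1 was -0.14 ± 0.05 (adjusted p = 0.0276). That call was lost on leaving out control replicate 1 (adjusted p = 0.0508), control replicate 2 (0.0740), fenofibrate replicate 2 (0.0515) or control replicates 1, 2 and 9 together (0.0555). The other probe sets, 1421839_at and 1450392_at, gave -0.05 ± 0.08 and -0.07 ± 0.10 and did not pass.

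**Figure D3:**
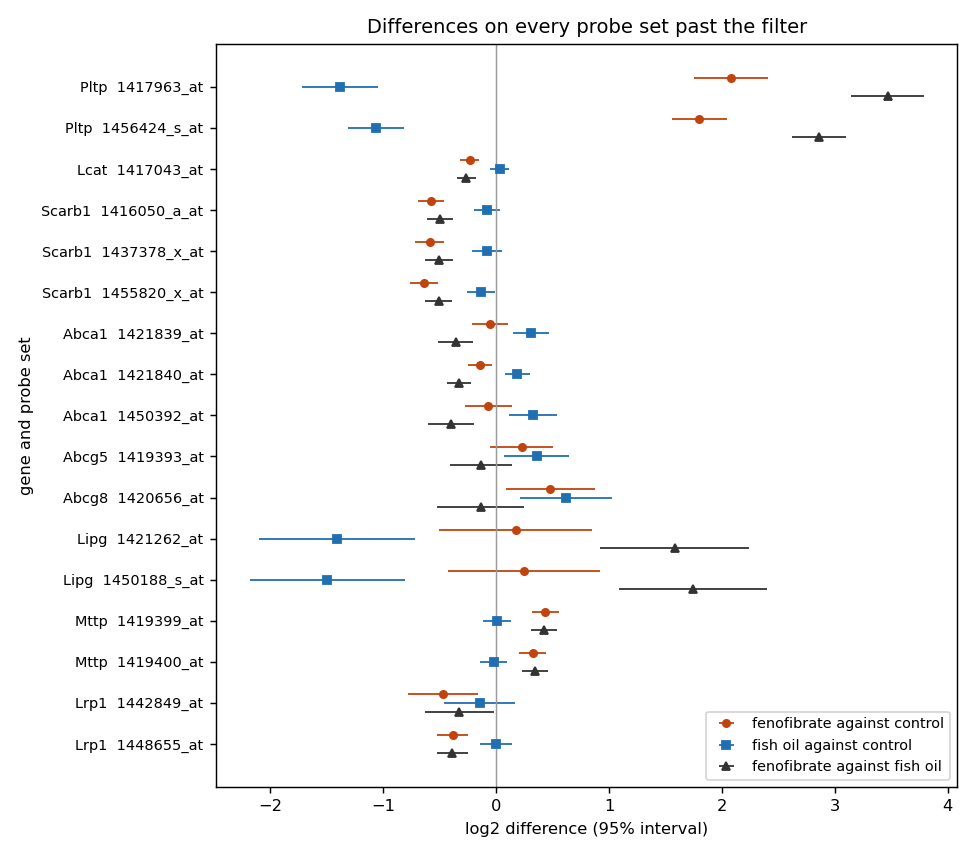
Log2 differences (horizontal axis) with 95% intervals on the 17 probe sets past the filter, with circles for fenofibrate against control, squares for fish oil against control and triangles for fenofibrate against fish oil. Probe sets of Pltp, Scarb1, Lipg and Mttp lie on the same side of 0 wherever their gene was called, and those of Abca1 run from -0.14 to -0.05 for fenofibrate against control.

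Abcg5 and Abcg8 encode the partner subunits of the sterol transporter of the canalicular membrane, and they start head to head on chromosome 17. The starts used here lie at bases 84683011 (Abcg5, minus strand) and 84683121 (Abcg8, plus strand) of GRCm38.p6, with 109 bases between them. The promoter windows of these starts share 209 bases. Abcg8 has another listed start at base 84676302, farther from the Abcg5 start. The window of Abcg8 at base 84683121 on the plus strand, chr17:84682871-84683170 (RefSeq, GRCm38.p6), is shown because it holds a start of each gene. Capitals mark the bases from the Abcg5 start to the Abcg8 start.
Abcg8: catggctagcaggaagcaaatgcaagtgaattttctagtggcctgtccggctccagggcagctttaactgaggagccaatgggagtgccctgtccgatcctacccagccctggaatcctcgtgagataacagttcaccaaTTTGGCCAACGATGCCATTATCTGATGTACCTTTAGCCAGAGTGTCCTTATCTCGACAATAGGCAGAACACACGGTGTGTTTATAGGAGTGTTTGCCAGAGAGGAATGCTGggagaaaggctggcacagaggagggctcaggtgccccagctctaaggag
The window held 3 matches to GATAA on either strand, the core of a motif of GATA factors, 2 of them between the starts (25.4% of all windows held it). It held 1 match to the TATA box, on the strand of Abcg5, and 2 to the CCAAT box.

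Among the controls both genes were lowest in replicates 1, 2 and 9, and without these arrays their differences from control were much smaller. Abcg8 ran from 9.72 to 10.89 (median 10.22) on fenofibrate, from 9.74 to 10.57 (median 10.40) on fish oil and from 8.46 to 10.51 (median 10.05) on the control diet. Control replicates 1, 2 and 9 stood at 8.46, 8.93 and 8.62, and the lowest of the other controls at 9.86. Abcg5 ran from 10.38 to 11.09 (median 10.90) on fenofibrate, from 10.36 to 11.27 (median 11.07) on fish oil and from 9.48 to 11.01 (median 10.82) on the control diet, with control replicates 1, 2 and 9 at 9.48, 10.13 and 10.47.

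With all arrays Abcg8 rose by 0.62 ± 0.20 on fish oil (1.53-fold, adjusted p = 0.0325) and by 0.48 ± 0.19 on fenofibrate (adjusted p = 0.0476). Without control replicates 1, 2 and 9 the difference was 0.17 on fish oil (adjusted p = 0.399) and 0.03 on fenofibrate (adjusted p = 0.875). The fish oil call was also lost without any 1 of control replicates 1, 2 and 9 or fish oil replicates 1 and 2 (adjusted p up to 0.0719). The fenofibrate call was lost in 13 of 22 fits that left out 1 array, namely without 1 of the control replicates 1, 2, 5 and 9 or 1 of the fenofibrate replicates 1, 3, 4, 5, 6, 7, 8, 11 and 12, where the adjusted p reached 0.123. Over all probe sets it was not made (adjusted p = 0.0523 over 17162 probe sets).

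Abcg5 did not pass on fenofibrate (0.23 ± 0.14, adjusted p = 0.198) or on fish oil (0.36 ± 0.14, adjusted p = 0.0847), though without fish oil replicate 5 the fish oil difference was 0.42 (adjusted p = 0.0360). Without control replicates 1, 2 and 9 it was -0.03 on fenofibrate and 0.10 on fish oil. Between the diets neither gene passed, with Abcg5 at -0.13 ± 0.13 (95% interval -0.41 to 0.14) and Abcg8 at -0.14 ± 0.19 (-0.52 to 0.25).

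Within each diet, arrays with more Abcg5 had more Abcg8. Over the 12 fenofibrate arrays Pearson r was 0.78 and Spearman rho 0.82 (permutation p = 0.00223 and 0.00167, adjusted p = 0.00446 and 0.00334 over 4 relations, which include all 10 controls), and r was 0.66 without replicates 2 and 10. Over the 11 fish oil arrays r was 0.87 and rho 0.58 (permutation p = 0.00535 and 0.0661, adjusted p = 0.00713 and 0.0663), and r was 0.53 without replicates 5 and 6, so that the fish oil value rests partly on those 2 arrays. Since control replicates 1, 2 and 9 were the lowest controls for both genes, the other 7 controls were taken alone. These gave r of 0.77 and rho of 0.75 (exact permutation p = 0.0419 and 0.0663, adjusted p = 0.0419 and 0.0663). Without control replicates 4 and 8 that r was 0.57. Pearson r thus passed 0.05 after adjustment in all 3 diets, and rho passed it on fenofibrate but not on fish oil or in the 7 controls. Members of 1 pair of consecutive label numbers deviated to the same side in 12 of 16 pairs for either gene, so the arrays are not fully independent.

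**Figure D4:**
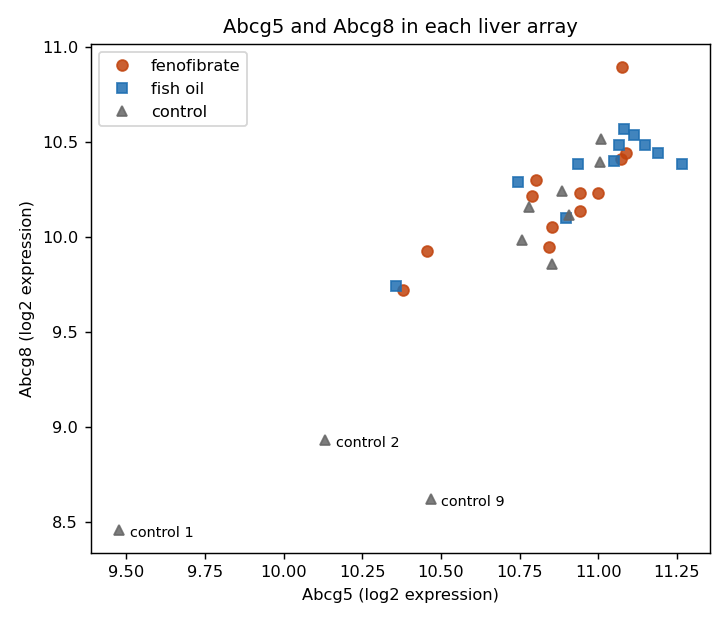
Log2 expression of Abcg8 (vertical axis) against Abcg5 (horizontal axis) in each array, with circles for fenofibrate, squares for fish oil and triangles for control. Control replicates 1, 2 and 9 lie below the others, at 8.46, 8.93 and 8.62 for Abcg8.

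Genes that work beside these members were counted in 6 lists, chosen with earlier results of these data known. Over all genes 22% were higher and 18.9% lower on fenofibrate, and 7.53% higher and 7% lower on fish oil, each against control. Of 10 genes of the HDL particle and its exchange, 6 fell and 0 rose on fenofibrate (median -0.21), and 4 fell and 0 rose on fish oil (median -0.03), each against control. On fenofibrate Apom had the smallest adjusted p of this list and fell (-0.65 ± 0.04, adjusted p = 6.83e-14). Apof, which encodes a lipid transfer inhibitor protein, fell by 0.52 ± 0.05 (12.88 ± 0.15 on fenofibrate and 13.40 ± 0.08 in controls, SD). Pon1, a paraoxonase carried on HDL, fell by 0.28 ± 0.05. On fish oil Apof fell by 0.30 ± 0.06, and Pdzk1, whose protein holds SR-BI at the hepatocyte surface, fell by 0.30 ± 0.08 (adjusted p = 0.0101). Pdzk1 fell on fenofibrate too, by 0.29 ± 0.08 (adjusted p = 0.00399), and did not pass between the diets (0.01 ± 0.08, adjusted p = 0.912). Apom also fell on fish oil, by 0.14 ± 0.04 (adjusted p = 0.0313). Apoa1 fell by 0.14 ± 0.04 on either diet, with its fish oil call lost with consecutive label numbers averaged (adjusted p = 0.103).

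Of 9 measured genes of the assembly of very low density lipoprotein, 2 rose and 5 fell on fenofibrate, and 1 rose and 3 fell on fish oil. The rises on fenofibrate were Dgat1, a triglyceride synthesis enzyme (0.75 ± 0.09), and Sar1b, a GTPase of vesicle export (0.18 ± 0.04). P4hb, which encodes the partner subunit of MTTP, fell by 0.26 ± 0.05 while Mttp rose. On fish oil the droplet protein gene Cideb fell by 0.19 ± 0.04 and Tm6sf2, which acts in lipidation of the particles, fell by 0.63 ± 0.15 (adjusted p = 0.00333). Cideb fell by 0.14 ± 0.04 on fenofibrate too. Dgat1 rose by 0.27 ± 0.09 and Sar1b fell by 0.12 ± 0.04 on fish oil. Both of these calls were lost with consecutive label numbers as a random block. On fish oil 0 rose and 3 fell without control replicates 1, 2 and 9.

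Of 9 genes of lipoprotein lipase and its control, 2 rose and 3 fell on fenofibrate, and 2 rose and 4 fell on fish oil. Lpl itself, which encodes lipoprotein lipase, rose by 3.29 ± 0.21 on fenofibrate (11.87 ± 0.46 on fenofibrate and 8.58 ± 0.64 in controls, SD; adjusted p = 2.18e-14). On fish oil Lpl rose by 0.77 ± 0.21 (adjusted p = 0.0118). Apoa4, an apolipoprotein of triglyceride-rich particles, fell on both diets (-1.22 ± 0.23 on fenofibrate and -3.56 ± 0.23 on fish oil). Apoc3, an inhibitor of triglyceride clearance, fell by 0.24 ± 0.04 on fenofibrate and by 0.14 ± 0.04 on fish oil. The fish oil calls of Lpl and Apoc3 were lost with consecutive label numbers averaged. Apoc2, the activator of lipoprotein lipase, fell by 0.60 ± 0.06 on fish oil (12.01 ± 0.12 on fish oil and 12.61 ± 0.19 in controls, SD), and Apoa5, which favours triglyceride clearance, fell by 0.27 ± 0.06. Apoa5 also fell on fenofibrate, by 0.18 ± 0.06 (adjusted p = 0.00974), a call lost with consecutive label numbers averaged. On fenofibrate 1 rose and 4 fell without control replicates 1, 2 and 9. Of 7 lipoprotein receptors and partners, 1 rose and 1 fell on fenofibrate, and 1 rose and 2 fell on fish oil. Without control replicates 1, 2 and 9 these counts were 1 and 0 on fenofibrate, and 0 and 2 on fish oil. On fenofibrate Vldlr rose by 5.62 ± 0.44, from a control mean of 4.70, near the filter level of 4. Sdc1 fell on fenofibrate (-0.21 ± 0.07), a call lost without control replicates 1, 2 and 9.

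Of 9 genes of biliary lipid export and sterol handling, 3 rose and 2 fell on fenofibrate, and 2 rose and 3 fell on fish oil. Lipa, the lysosomal acid lipase that frees cholesterol from taken-up lipoprotein, moved to opposite sides of control. It averaged 11.26 ± 0.08 on fenofibrate, 10.43 ± 0.15 on fish oil and 10.85 ± 0.14 on the control diet (SD), a rise of 0.41 ± 0.06 on fenofibrate (adjusted p = 4.10e-07) and a fall of -0.42 ± 0.06 on fish oil (adjusted p = 2.38e-06). Npc2, which carries cholesterol out of the lysosome, fell by 0.39 ± 0.05 on fish oil. Between the diets Lipa was 0.82 ± 0.05 higher and Npc2 0.35 ± 0.05 higher on fenofibrate than on fish oil. Abcb4, the phospholipid exporter of bile, rose by 0.42 ± 0.08 on fenofibrate and by 0.27 ± 0.08 on fish oil. Abcc2, an organic anion exporter of the same membrane, rose by 0.36 ± 0.05 on fenofibrate and by 0.29 ± 0.05 on fish oil. With consecutive label numbers as a random block, 1 gene of this list rose on fish oil.

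Of 9 genes of the receptors LXR and FXR and their targets, 2 rose and 4 fell on fenofibrate, and 0 rose and 1 fell on fish oil. Lpcat3, a phospholipid remodelling enzyme, rose by 0.55 ± 0.08 on fenofibrate. Hnf4a (-0.42 ± 0.06) and Rxra (-0.36 ± 0.07) were among the falls on fenofibrate. Srebf1 fell on fish oil (-0.58 ± 0.17, adjusted p = 0.0197) and rose on fenofibrate (0.44 ± 0.17, adjusted p = 0.0364). Between the diets it was 1.02 ± 0.16 higher on fenofibrate (adjusted p = 6.85e-06). The fish oil call was lost with consecutive label numbers as a random block (adjusted p = 0.0580). Without control replicates 1, 2 and 9 the fish oil difference was -0.88 (adjusted p = 8.54e-05). The fenofibrate call of Srebf1 was lost in both of these fits. Nr1h3, which encodes LXRα, did not pass on fish oil (-0.13 ± 0.07, adjusted p = 0.185). On fenofibrate 1 rose and 3 fell in that list without control replicates 1, 2 and 9.

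Some counts in these lists moved in other fits. The number called over all genes moved too, and was lower on fish oil with consecutive label numbers averaged. Without control replicates 1, 2 and 9, 4 VLDL assembly genes fell on fenofibrate, and 1 HDL particle gene rose on fish oil. With consecutive label numbers averaged, the genes that fell on fish oil were 2 of the HDL particle, 2 of VLDL assembly, 3 of lipoprotein lipase control, 0 receptors and partners, 2 of biliary export and sterol handling and 0 of LXR and FXR. In the same fit 0 genes rose on fish oil in the lipoprotein lipase list.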

How the data were processed

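Log2 expression values per probe set were deposited by the authors; per the submitters' processing notes they were made with GCRMA 2.24.1, a method that models background from probe sequence, so differences of dim probe sets depend on its background model. Control probe sets (64) were left out. Symbols were updated through gene identifiers to GRCm38.p6 names (34741 of 34945 probe sets with 1 gene; 932 had several genes and 9160 none). Probe sets reaching 4 on the log2 scale in 10 or more arrays were kept (17162), and the brightest stood for each gene (9005 genes). One limma 3.58.1 model (statmod 1.5.0, R 4.3.3) of the 3 diets over all 33 arrays, with eBayes, two-sided tests and Benjamini-Hochberg adjustment over all genes, gave differences, SE and adjusted p-values. The same model over probe sets gave values of single probe sets. Abcg5 and Abcg8 were correlated with 100000 permutations, or all permutations for 7 arrays. The fit was tested on simulated data.

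The members and lists were chosen with earlier results of these data known. All members are named; from each wider list, up to 3 genes with the smallest adjusted p per comparison could be named. No replicate pairing was used: same-numbered arrays of different diets came from different mice. The number of arrays limits the precision.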

Additional observations from a re-analysis of the deposited data

How the results depend on the processing

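Differences of single members were refitted under 13 other settings of filter, scaling, probe set choice, variance model, array set, weights and blocks: of 351 values 326 kept their side of the threshold, 25 lost it, and no called difference changed sign. The losses were 11 for Abcg8 and 6 for Abca1 on fenofibrate against control, 6 for Abcg8 and 1 for Abca1 on fish oil against control, and 1 for Lrp1 between the diets on its most variable probe set (adjusted p = 0.0873). The cause was not tested. Over these settings the adjusted p of Abcg8 ran from 0.0456 to 0.875 on fenofibrate and from 0.0303 to 0.399 on fish oil. With consecutive label numbers averaged, which leaves fewer values per diet, 2 members were called on fish oil against control, Pltp and Lipg, and 640 genes in all, against 1308 in the fit of single arrays. With these numbers as a random block (correlation 0.23) that count was 845. With the replicate number as a block, 6, 4 and 7 members were called on fenofibrate, on fish oil and between the diets, and Abcg8 on fenofibrate was at 0.46 (adjusted p = 0.0653). Deviations of 31 same-numbered pairs of arrays correlated at -0.206 to 0.354 (median 0.0524), with 12 pairs over 0.1. Of 32 arrays 3 correlated best with an array of their own number. What arrays of the same replicate number share was not tested. On fish oil the lowest Lipg values, 4.47 on 1421262_at and 4.51 on 1450188_s_at, both in replicate 1, were near the filter level of 4. How far such dim values limit the precision of the fall of Lipg was not tested.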

Other observations

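Spread within a diet differed among the members. On the probe set that stood for each gene, this spread was widest for Lipg on fenofibrate and on fish oil, and for Abcg8 on the control diet. On the other Lipg probe set past the filter, 1450188_s_at, the control SD was 0.766. On fish oil the SD of Lipg over 11 arrays was 1.15, against 0.44 on fenofibrate and 0.70 on the control diet. The lowest fish oil arrays on probe set 1421262_at were replicates 1, 9 and 2, at 4.47, 5.91 and 6.07, and on probe set 1450188_s_at replicates 1, 2 and 3, at 4.51, 4.81 and 5.06. The lowest control was replicate 2 on both probe sets, at 6.61 and 6.02. Lcat was among the members that varied least, with an SD of 0.10 on fenofibrate, 0.07 on fish oil and 0.09 on the control diet. For Abcg8 the SD was 0.30 on fenofibrate, 0.24 on fish oil and 0.76 on the control diet.

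Arrays of consecutive label numbers resembled each other most for some members. For Abcg5 the SD within pairs was 0.21, against 0.33 over all arrays around their diet means. For Mttp it was 0.085 against 0.130, and for Pltp 0.20 against 0.29, though Pltp deviated to the same side in only 8 of 16 pairs. For Lcat it was 0.07 against 0.08, and for Scarb1 0.11 against 0.13. What a pair of consecutive numbers shares is not given in the labels.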
